A study of Mus musculus with 12 samples.

Results

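The genes followed here make, sense or destroy prostaglandins in mouse superior cervical ganglia (SCG), which hold sympathetic neurons of the neck. The list holds 10 genes, chosen by symbol: the enzymes Ptgs1, Ptgs2, Ptges, Ptgis, Ptgds and Hpgd and the prostaglandin E2 receptors Ptger1, Ptger2, Ptger3 and Ptger4. Of these, 9 had a probe set that the platform annotation ties to that symbol alone, out of 18193 such genes in all. Ptgs1, the cyclooxygenase that most tissues make at a steady rate, was not analysed here. Each gene is given by its probe set of highest mean over the 12 arrays, and the other probe sets of a gene are described after it.

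Expression was measured on Affymetrix mouse expression arrays in 3 groups of CD1 mouse SCG samples, with 4 biological replicates each. The 3D group held SCG cells grown in porous polystyrene scaffolds and the 2D group SCG cells grown on a flat dish, both coated with collagen and measured after 5 days in a medium with serum and nerve growth factor. The tissue group was freshly dissected SCG with no time in culture, and served the study as the stand-in for the state in the animal. The labels give an age of 21 days for all samples where the methods name neonatal mice, and for the 2D dish they name polystyrene where the methods name glass. The cultured cells came from enzyme-digested ganglia and were plated as single cells and cell chunks. Ganglia hold glia, fibroblasts and other cells beside neurons, and each array reads their mixture. All 5 listed genes of dividing cells rose in 3D and in 2D against tissue, where 20.1% and 14.3% of all genes rose. In such bulk samples fewer cells of a type and less RNA per cell cannot be told apart.

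Prostaglandins are short-lived lipid signals made from arachidonic acid, which phospholipases cut from membranes. A cyclooxygenase (Ptgs1 or Ptgs2) turns the acid into an unstable intermediate, and a dedicated synthase then fixes which prostaglandin results: E2 by Ptges, D2 by Ptgds, prostacyclin by Ptgis. Prostaglandin E2 acts on the receptors that Ptger1 to Ptger4 code for, until Hpgd, the prostaglandin dehydrogenase, inactivates it inside cells. In sympathetic neurons prostaglandin E2 is known for dampening calcium channels and transmitter release, and in injured nerve Ptgs2 is known as an inducible gene of inflammation.

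Values are log2 expression levels made with the RMA algorithm, in which a difference of 1 is a 2-fold change. RMA gives no detection call, and the lowest value on an array lay between 2.71 and 2.97, so the fold of a probe set near that floor is an estimate close to background. Pairs of groups were compared with limma and adjusted over all 45037 probe sets tested, and a gene was called at an adjusted p under 0.05. Whole-array facts bear on the tissue values. The spread (SD) of all log2 values was 2.35 to 2.41 on 3D arrays and 2.36 to 2.42 on 2D arrays, against 2.31, 2.14, 1.93 and 2.32 on tissue replicates 1 to 4. Skeletal muscle transcripts were high on tissue replicates 2, 3 and 4, where 5 muscle genes averaged 9.48, 7.99 and 9.53 against 5.14 on replicate 1, so the results below were also computed with replicate 1 as the only tissue array. That fit holds no spread among tissue arrays, and over all genes it left fewer calls in 2D against tissue. The part of muscle transcripts in a call lost there was not tested.

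Between 3D and 2D cultured cells 0 of the 9 genes were called by limma in either direction, where 0.0165% of all genes were called higher and 0% lower. At an unadjusted p under 0.05 limma found 1 of the 9, Ptger4, and the methods' t-test with adjustment called 0. In 3D against tissue 2 of the 9 were called higher (20.1% of all genes) and 2 lower (15.5%). In 2D against tissue 2 were called higher (14.3% of all genes) and 1 lower (9.87%). With 9 members these shares are close to those of all genes, and the counts set the list apart in no way. The median difference of the 9 genes was 0.14 between 3D and 2D, -0.03 between 3D and tissue and 0.00 between 2D and tissue, against 0.01, -0.03 and -0.03 over all genes. Both comparisons with tissue use the same 4 tissue arrays, and their values are given side by side. Leaving out 1 array costs calls in general. Over all genes 6475 were called between 3D and tissue, against 4373 to 4956 without any single 3D array and 4863 without tissue replicate 2. Between 2D and tissue 4393 were called, against 2423 to 3226 without any single 2D array and 2369 without tissue replicate 2.

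**Figure D1:**
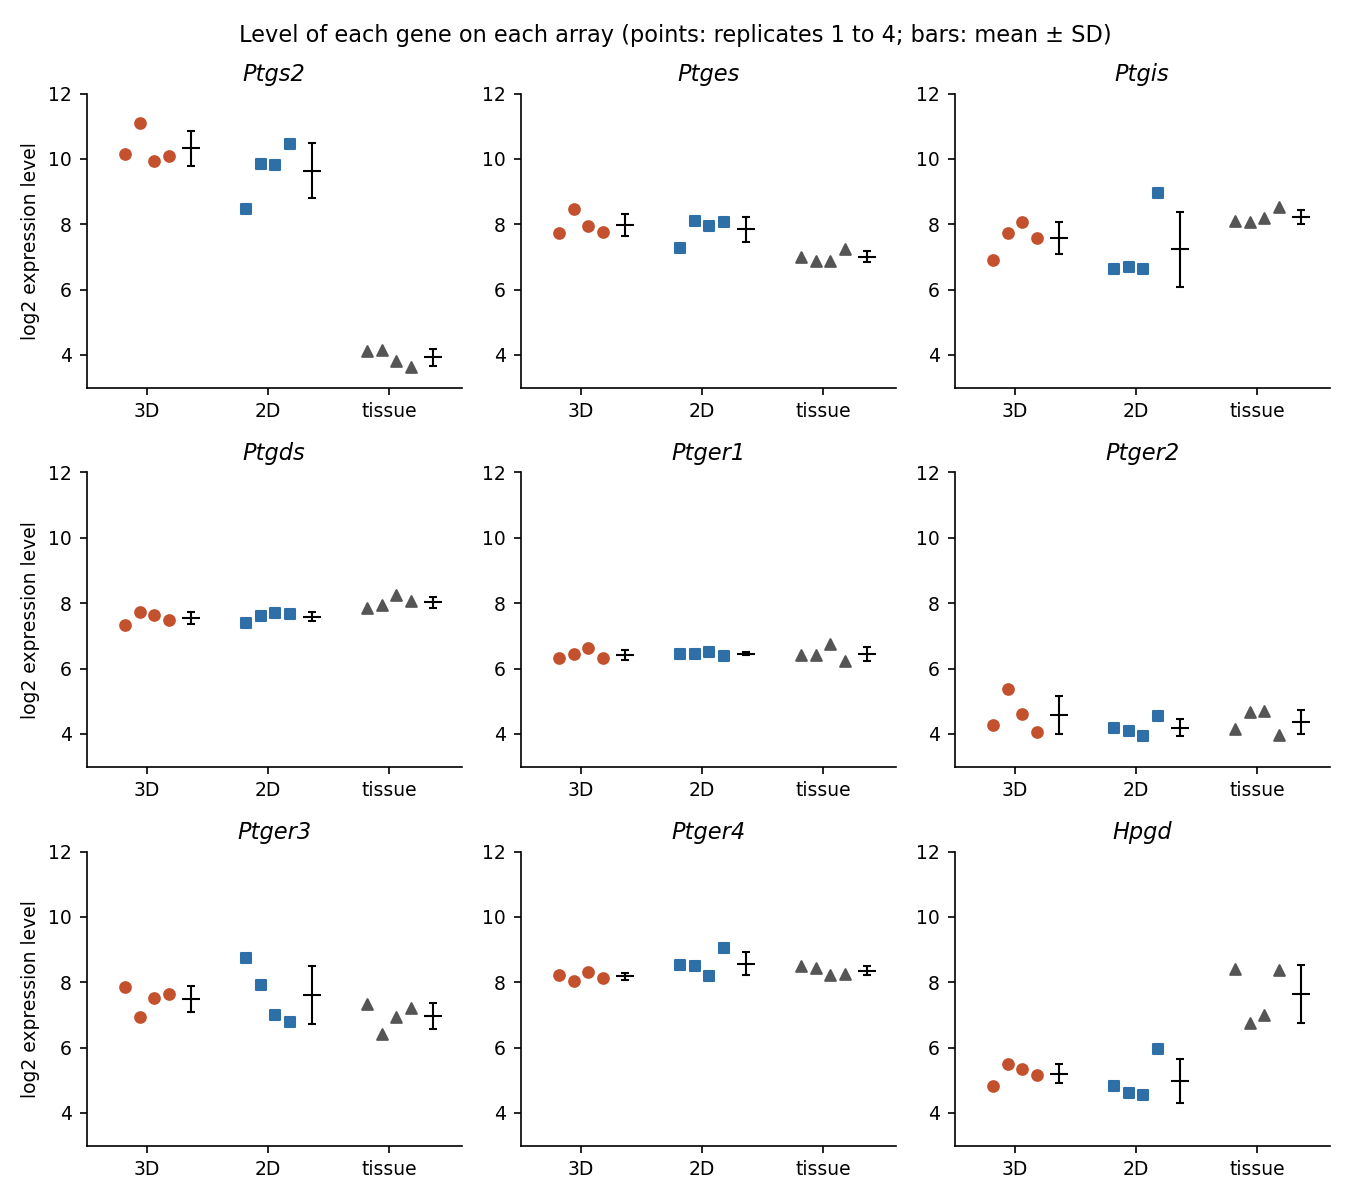
Log2 expression level of the 9 genes on every array, with 3D, 2D and tissue from left to right on each x axis and the same y axis in all panels; points are replicates 1 to 4 in order and bars are the mean ± SD of 4 arrays. Ptgs2 lies above 8 on all 8 culture arrays and below 4.2 on all tissue arrays, Hpgd shows the opposite order, and the 4 receptors show no called difference.

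Ptgs2, the inducible cyclooxygenase and the committing step of the pathway in stimulated cells, stood apart from the other members. Its level was 10.15, 11.11, 9.95 and 10.09 on the 3D arrays, 8.47, 9.85, 9.81 and 10.44 on the 2D arrays, and 4.12, 4.16, 3.83 and 3.62 on the tissue arrays. Every culture array was above every tissue array, and the tissue values lay near the floor of the arrays. With SE for the standard error of a difference, Ptgs2 rose against tissue by 6.39 in 3D (SE 0.26; limma adjusted p = 2.23e-06) and by 5.71 in 2D (SE 0.37, adjusted p = 6.35e-05). On a linear scale these are 84.0-fold and 52.3-fold, estimates that rest on a dim tissue signal. Between 3D and 2D the difference was 0.68, with a 95% confidence interval from -0.26 to 1.63 and an adjusted p of 0.570 from limma. The 2D array of replicate 1 was the lowest of the 8 culture arrays and 3D replicate 2 the highest. A second, dimmer probe set of Ptgs2 gave the same order with smaller differences, 2.77 in 3D against tissue (adjusted p = 0.00111 from limma) and 1.91 in 2D against tissue (adjusted p = 0.0144). With tissue replicate 1 as the only tissue array the differences of the main probe set were 6.20 and 5.52 (adjusted p = 0.000238 and 0.0277 from limma).

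Ptges, the inducible synthase that takes the product of Ptgs2 on to prostaglandin E2, rose with a much smaller difference. It read 7.74, 8.46, 7.96 and 7.77 on 3D arrays, 7.28, 8.09, 7.94 and 8.06 on 2D arrays, and 7.01, 6.88, 6.88 and 7.25 on tissue arrays. All culture arrays were above all tissue arrays, although 2D replicate 1, at 7.28, was only just above tissue replicate 4. The difference from tissue was 0.98 in 3D (1.97-fold, SE 0.19, limma adjusted p = 0.00449) and 0.84 in 2D (1.79-fold, SE 0.21, adjusted p = 0.0228). The 3D minus 2D difference was 0.14 (95% confidence interval -0.36 to 0.64, adjusted p = 0.839). The 2D call was lost without 2D replicate 2, 3 or 4 or tissue replicate 2 (adjusted p from 0.0546 to 0.0723 in limma), with centred arrays (0.0962) and with tissue replicate 1 alone (0.221). Another probe set of Ptges gave 0.88 in 3D against tissue (adjusted p = 0.0193) and 0.44 in 2D against tissue (adjusted p = 0.251), while the dimmest gave 0.24 and -0.03 (adjusted p = 0.322 and 0.911). The rise in 3D is therefore seen by 2 of the 3 probe sets and that in 2D by 1 of the 3.

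Ptgs2 and Ptges also shared their high and low culture arrays. All 5 probe sets of the pair read highest of the 12 arrays on 3D replicate 2 and lowest of the 8 culture arrays on 2D replicate 1. On 3D replicate 2 Il1a read 8.36 and Il1b 7.40, the highest values of these interleukin genes on any array, and Il6 read 11.39 there against 9.20 to 9.72 on the other 3D arrays. Il1a and Il1b were picked here after their values had been seen. The receptor Ptger2 was also at its highest on 3D replicate 2. Whether this array differed in handling was not tested.

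To show the sequence next to the starts of the genes that moved most, the 250 bases before the annotated start of Ptgs2, Ptges and Hpgd are printed, from RefSeq on the GRCm38.p6 build. The start used for Ptges lies inside its annotated gene span, chr2:30889471-30931020, and not at an end of it. Of the 10 listed genes, 8 matched an entry of 300 bases, 250 before the start and 50 after it. Capitals mark matches, on either strand, to 7 short motifs chosen with the results of these arrays known. The cAMP response motif was searched as CGTCA and the E-box as CACGTG. The C/EBP core was searched as TTNCNNAA, where N is any base. The GC box stands for GGGCGG and the TATA box for TATAAA. The AP-1 motif was TGANTCA, and the motif of EGR1 was GCGNGGGCG.
Ptgs2 (chr1:150099781-150100030, plus strand): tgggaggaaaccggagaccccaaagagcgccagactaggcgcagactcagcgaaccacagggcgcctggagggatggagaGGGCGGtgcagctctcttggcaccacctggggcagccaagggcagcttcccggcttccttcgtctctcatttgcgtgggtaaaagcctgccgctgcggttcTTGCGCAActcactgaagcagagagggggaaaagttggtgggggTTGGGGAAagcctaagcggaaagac
Ptges (chr2:30903298-30903547, minus strand): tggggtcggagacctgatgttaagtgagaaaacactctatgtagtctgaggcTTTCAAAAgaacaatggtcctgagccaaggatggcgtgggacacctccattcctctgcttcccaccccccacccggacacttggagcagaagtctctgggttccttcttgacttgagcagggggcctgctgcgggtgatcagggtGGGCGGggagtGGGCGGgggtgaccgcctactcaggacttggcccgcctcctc
Hpgd (chr8:56294302-56294551, plus strand): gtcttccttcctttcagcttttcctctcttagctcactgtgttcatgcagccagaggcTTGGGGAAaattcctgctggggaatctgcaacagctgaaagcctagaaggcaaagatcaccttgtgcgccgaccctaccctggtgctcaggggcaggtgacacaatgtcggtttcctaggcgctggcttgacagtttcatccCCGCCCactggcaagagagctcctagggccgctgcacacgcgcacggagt
Just past the annotated start of Ptgs2, CGTCA and CACGTG overlap by 2 bases in this run of 30 bases.
Ptgs2 (chr1:150100035-150100064, plus strand): tcaccactaCGTCACGTGgagtccgcttta
CGTCA begins 14 bases into the transcribed side and CACGTG 17 bases into it. Among all 32851 windows of 300 bases 20.8% hold CGTCA and 7.15% hold CACGTG, and of the 8 windows of listed genes that of Ptgs2 alone holds either. Ptgs2 also carries 2 C/EBP cores, the palindrome TTGCGCAA that begins 69 bases before the start and TTGGGGAA that begins 25 bases before it; Ptges and Hpgd carry 1 C/EBP core each, and 40.7% of all windows hold at least 1. The windows of Ptgds and Ptger2 hold the C/EBP core as well. The GC box occurs in Ptgs2, in Hpgd and, at 53 and 42 bases before the start, in Ptges, and in 35.7% of all windows. The windows of Ptger3 and Ptger4 also hold it, so neither motif was limited to the printed genes. TATAAA, held by 13.6% of windows, was found in Hpgd, 5 bases past the start. TGACTCA, an AP-1 match, was found in Ptgds alone of the 8, where 7.81% of all windows hold one, and the EGR1 letters in none of the 8 (5.55% of windows). These are matches of letters and not measured binding.

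**Figure D2:**
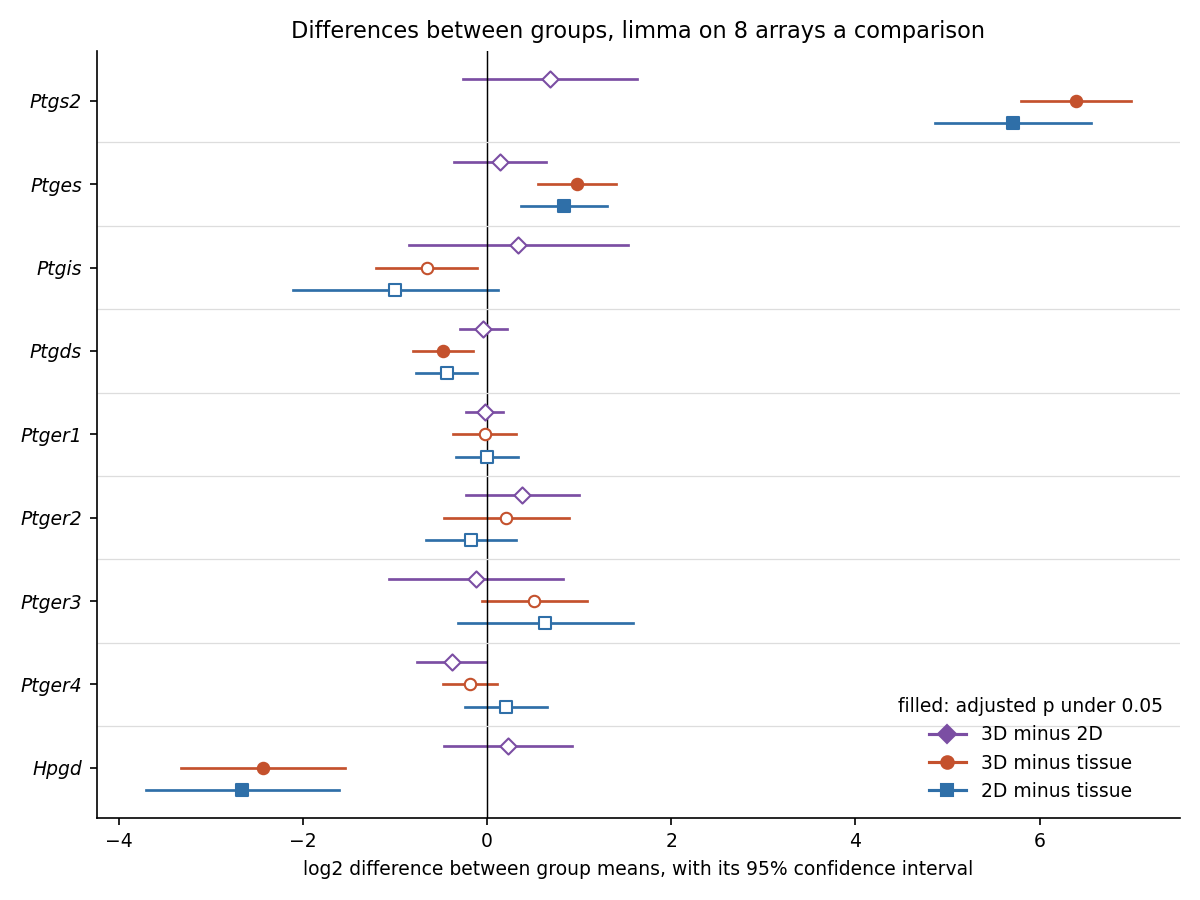
Log2 difference between group means for the 9 genes, with 95% confidence intervals from limma on the 8 arrays of each comparison; diamonds are 3D minus 2D, circles 3D minus tissue and squares 2D minus tissue, filled where the adjusted p was under 0.05. All 3D minus 2D points are open, and Ptgs2 at 6.39 and 5.71 and Hpgd at -2.43 and -2.66 lie farthest from 0.

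Hpgd, the dehydrogenase that ends prostaglandin signals, fell in both cultures. It read 4.82, 5.49, 5.36 and 5.15 on 3D arrays, 4.82, 4.60, 4.54 and 5.95 on 2D arrays, and 8.41, 6.76, 7.0 and 8.37 on tissue arrays. No culture array reached the lowest tissue array, and tissue replicates 1 and 4 were above tissue replicates 2 and 3. The difference from tissue was -2.43 in 3D (5.39-fold lower, SE 0.39, limma adjusted p = 0.00198) and -2.66 in 2D (6.31-fold lower, SE 0.46, adjusted p = 0.00565). The culture values, from 4.54 to 5.95, lay below the median of every culture array (6.34 to 6.38). These folds are therefore estimates that rest on a dim signal. The 3D minus 2D difference was 0.23, with a 95% confidence interval from -0.47 to 0.93 (adjusted p = 0.810). Among the 2D arrays replicate 4 read highest, and with it and 3D replicate 1 left out, a pair of arrays chosen with earlier results known, the difference between 3D and 2D was 0.68 (adjusted p = 0.0298). With tissue replicate 1 alone the differences from tissue were -3.21 in 3D and -3.43 in 2D (adjusted p = 0.000342 and 0.0435). A dimmer probe set of Hpgd gave -0.74 and -0.81 (adjusted p = 0.0832 and 0.0777), with overlapping groups.

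Markers of vessel lining cells fell in culture as Hpgd did, and called markers of neurons, mast cells and skeletal muscle also only fell. Of 7 endothelial markers 0 rose and 6 fell in 3D against tissue (20.1% and 15.5% of all genes). In 2D against tissue 0 rose and 4 fell (14.3% and 9.87% of all genes). Their median differences were -1.24 and -1.22. With single arrays left out 3 to 7 fell in 3D and 3 to 6 in 2D. The log2 of their summed level was 9.03 to 9.35 on 3D arrays, 9.02 to 9.94 on 2D arrays and 10.02 to 10.93 on tissue arrays. Tie1 and Pecam1, a receptor and an adhesion protein of these cells, were at 3.94 to 5.26 on the culture arrays, near the floor. The mean level of the 7 markers was higher on tissue replicates 1 and 4 (7.42 and 7.71) than on replicates 2 and 3 (7.07 and 6.55), as Hpgd was. But so was that of the fibroblast (12.65 and 12.54 against 11.06 and 10.56), neuron (12.22 and 12.50 against 11.94 and 10.98) and glia markers (11.57 and 11.46 against 10.81 and 10.26). The macrophage (8.43 and 8.39 against 7.86 and 7.81), leptomeningeal and smooth muscle markers had the same order. The part of endothelial or other cells in the Hpgd difference was not tested.

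Ptgis, the synthase of prostacyclin, a prostanoid of vessel walls that relaxes vessels, had 1 culture array far from the others. Its level was 6.91, 7.74, 8.06 and 7.57 in 3D, 6.64, 6.70, 6.63 and 8.95 in 2D, and 8.09, 8.07, 8.20 and 8.54 in tissue. The 3D arrays all lay below the tissue arrays, 3D replicate 3 only just. On the 2D arrays replicates 1, 2 and 3 lay close together and replicate 4 was above all tissue arrays. The differences from tissue were -0.66 in 3D (95% confidence interval -1.20 to -0.11, adjusted p = 0.0645 from limma) and -1.0 in 2D (95% confidence interval -2.10 to 0.11, adjusted p = 0.159), so that neither was called. Without 2D replicate 4 the 2D difference was -1.57 (adjusted p = 0.00185 from limma). That array stood out by its Ptgis value, so this p-value is not independent of the choice to leave it out. Without 2D replicate 4 and 3D replicate 1, a pair chosen with earlier results known, Ptgis was 1.13 higher in 3D than in 2D (limma adjusted p = 0.00828). All 8 arrays gave 0.34 (95% confidence interval -0.85 to 1.53, adjusted p = 0.836). Leaving both arrays out also raised the count of genes called between 3D and 2D to 1357, from 3 with all arrays. The 3D difference from tissue was called with cyclic loess (-0.83, adjusted p = 0.0200), with centred arrays (-0.93, adjusted p = 0.0216) and without 3D replicate 3 (-0.82, adjusted p = 0.0407).

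Markers of several cell types stood apart on the same 2D array. The mean level of the smooth muscle and pericyte markers was 10.33 on 2D replicate 4, the highest of the 12 arrays, that of the endothelial markers was 6.24, the highest of the culture arrays, and that of the neuron markers was 9.71, the lowest of the 12. Macrophage markers were high there too. The mean level of 7 macrophage markers was 7.32, 7.61, 7.66 and 7.35 on 3D arrays, 7.59, 6.65, 5.98 and 8.60 on 2D arrays, and 8.43, 7.86, 7.81 and 8.39 on tissue arrays. In 3D against tissue 2 of the 7 rose and 4 fell (20.1% and 15.5% of all genes). In 2D against tissue 1 rose and 0 fell (14.3% and 9.87% of all genes), or 5 fell without 2D replicate 4. The log2 of their summed level was 10.64 to 10.97 in 3D, 9.92 to 12.02 in 2D and 11.53 to 12.50 in tissue. Of the markers, Cd68 and Itgam rose in 3D against tissue, and Csf1r, Aif1, Ptprc and Mrc1 fell. Itgam read 4.29 to 6.0 on the culture arrays. The part of macrophages, vessel wall cells or other cells in the Ptgis values was not tested.

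**Figure D3:**
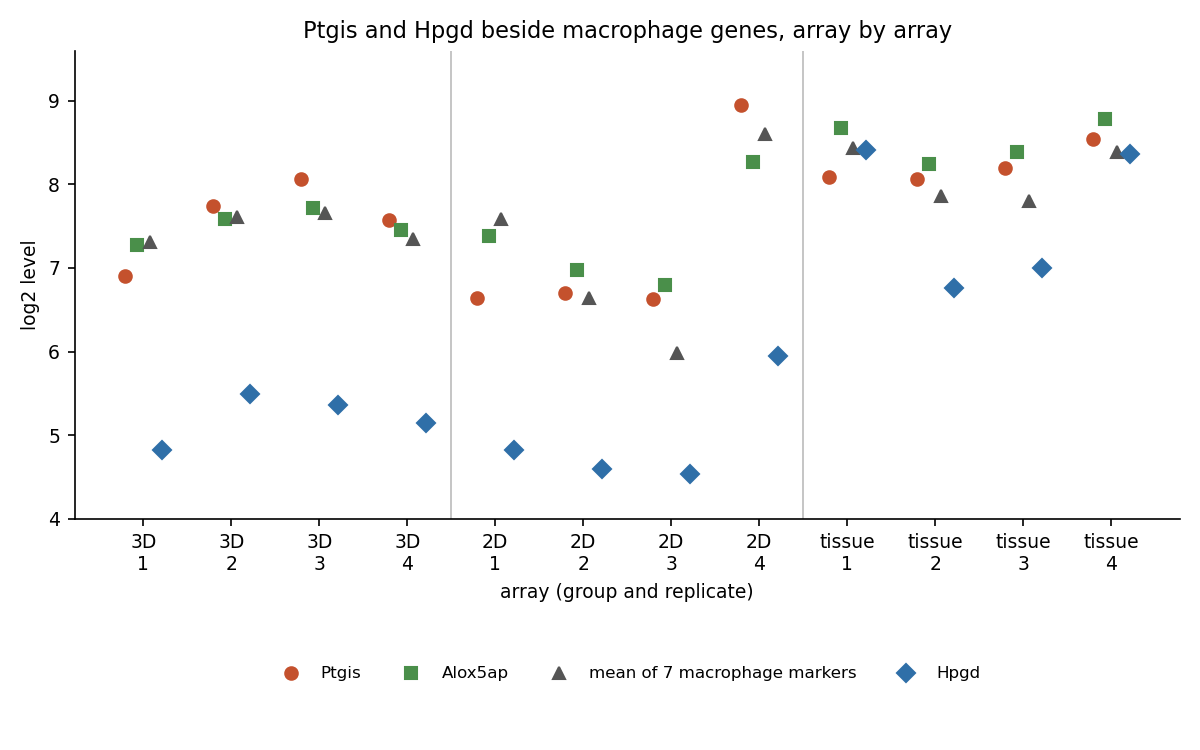
Log2 level of Ptgis (circles), of Alox5ap (squares), of Hpgd (diamonds) and the mean log2 level of 7 macrophage markers (triangles) on each array, in the order 3D, 2D, tissue along the x axis. On 2D replicate 4 Ptgis is at 8.95, Hpgd at 5.95 and the macrophage mean at 8.60, the highest culture values of each.

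Ptgds, the synthase of prostaglandin D2 and in brain coverings a major secreted protein, differed little. It was at 7.32, 7.74, 7.64 and 7.50 in 3D, 7.39, 7.60, 7.70 and 7.67 in 2D, and 7.85, 7.96, 8.24 and 8.06 in tissue. Every culture array lay below every tissue array, 3D replicate 2 being the nearest to them. Against tissue it fell by 0.48 in 3D (1.39-fold, SE 0.15, limma adjusted p = 0.0342) and the 2D difference of -0.44 was not called (SE 0.15, adjusted p = 0.0618). The 3D call was lost when any single 3D array was left out (adjusted p from 0.0509 to 0.0973) and without tissue replicate 2 or 4 (0.0597 and 0.0516). The other probe set of Ptgds, near the floor, gave -0.03 in 3D and 0.18 in 2D (adjusted p = 0.856 and 0.486). Between 3D and 2D the interval of the difference ran from -0.30 to 0.22.

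Of the 4 prostaglandin E2 receptors 0 were called in any of the 3 comparisons by the probe set of highest mean, on the values as deposited and without a replicate block. Another probe set or setting called Ptger4 or Ptger3 in 3D against tissue, as given below. With 4 arrays a group this sets bounds rather than equal levels, and the bounds differ by receptor.

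Ptger4, which codes for EP4, a receptor that raises cAMP and is known from immune cells and sensory neurons, had 8.23, 8.05, 8.31 and 8.12 in 3D, 8.53, 8.49, 8.19 and 9.04 in 2D, and 8.51, 8.45, 8.21 and 8.26 in tissue. It was 0.39 lower in 3D than in 2D by the means (95% confidence interval -0.76 to -0.01, adjusted p = 0.428 from limma), with overlapping groups and an exact two-sided permutation p of 0.0857. Without 2D replicate 4, the highest array, it was -0.23 (adjusted p = 0.342). The differences from tissue were -0.18 in 3D and 0.20 in 2D (adjusted p = 0.295 and 0.441). A probe set near the floor gave 0.58 in 3D against tissue (adjusted p = 0.0361), opposite in sign to the main probe set, which with cyclic loess was called lower in 3D (-0.49, adjusted p = 0.0215), so no direction is given for Ptger4 against tissue.

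Ptger3, which codes for EP3, the receptor that lowers cAMP and is known for curbing noradrenaline release from sympathetic nerves, was the receptor that varied most among replicates. It read 7.86, 6.94, 7.51 and 7.64 in 3D, 8.74, 7.91, 7.0 and 6.78 in 2D, and 7.34, 6.42, 6.93 and 7.20 in tissue. The 2D arrays alone spanned more than all 3D and tissue arrays together. Between 3D and 2D the difference was -0.12, with an interval from -1.06 to 0.82. Against tissue it was 0.52 in 3D (adjusted p = 0.142) and 0.64 in 2D (adjusted p = 0.274). A dimmer probe set of Ptger3 gave -0.75 and -0.66 (adjusted p = 0.115 and 0.268), again with the opposite sign. The log2 of the summed level of 7 neuron markers was 15.15, 15.02, 14.90 and 13.29 on 2D replicates 1 to 4. This is the order of the main probe set of Ptger3. The dimmer probe set read 7.57, 6.56, 5.77 and 6.0 there, which differs from that order in replicates 3 and 4. The mean level of the neuron markers was 11.43, 11.27, 11.37 and 9.71, which differs from it in replicates 2 and 3. Within 3D and within tissue the order of the sums also differed from that of Ptger3. The sums were 13.83 to 14.71 in 3D and 14.40 to 15.93 in tissue, where the mean of Ptger3 was 7.49 and 6.97. The part of neurons in the Ptger3 values was not tested.

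Ptger1, which codes for EP1, a receptor that raises cell calcium, was the flattest member: its 12 values lay between 6.23 and 6.75, and the 3 differences were -0.03, -0.03 and 0.00. The intervals ran from -0.23 to 0.18 between 3D and 2D, from -0.37 to 0.32 between 3D and tissue and from -0.34 to 0.34 between 2D and tissue. Ptger2, which codes for EP2, another receptor that raises cAMP, lay near the floor at 4.28, 5.38, 4.60 and 4.06 in 3D, 4.19, 4.10, 3.94 and 4.55 in 2D, and 4.14, 4.66, 4.70 and 3.98 in tissue. Its groups overlapped fully but for 3D replicate 2, and its 3D minus 2D interval ran from -0.23 to 1.0. A filter on dim probe sets removed Ptger2 and left the other 8 genes.

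**Figure D4:**
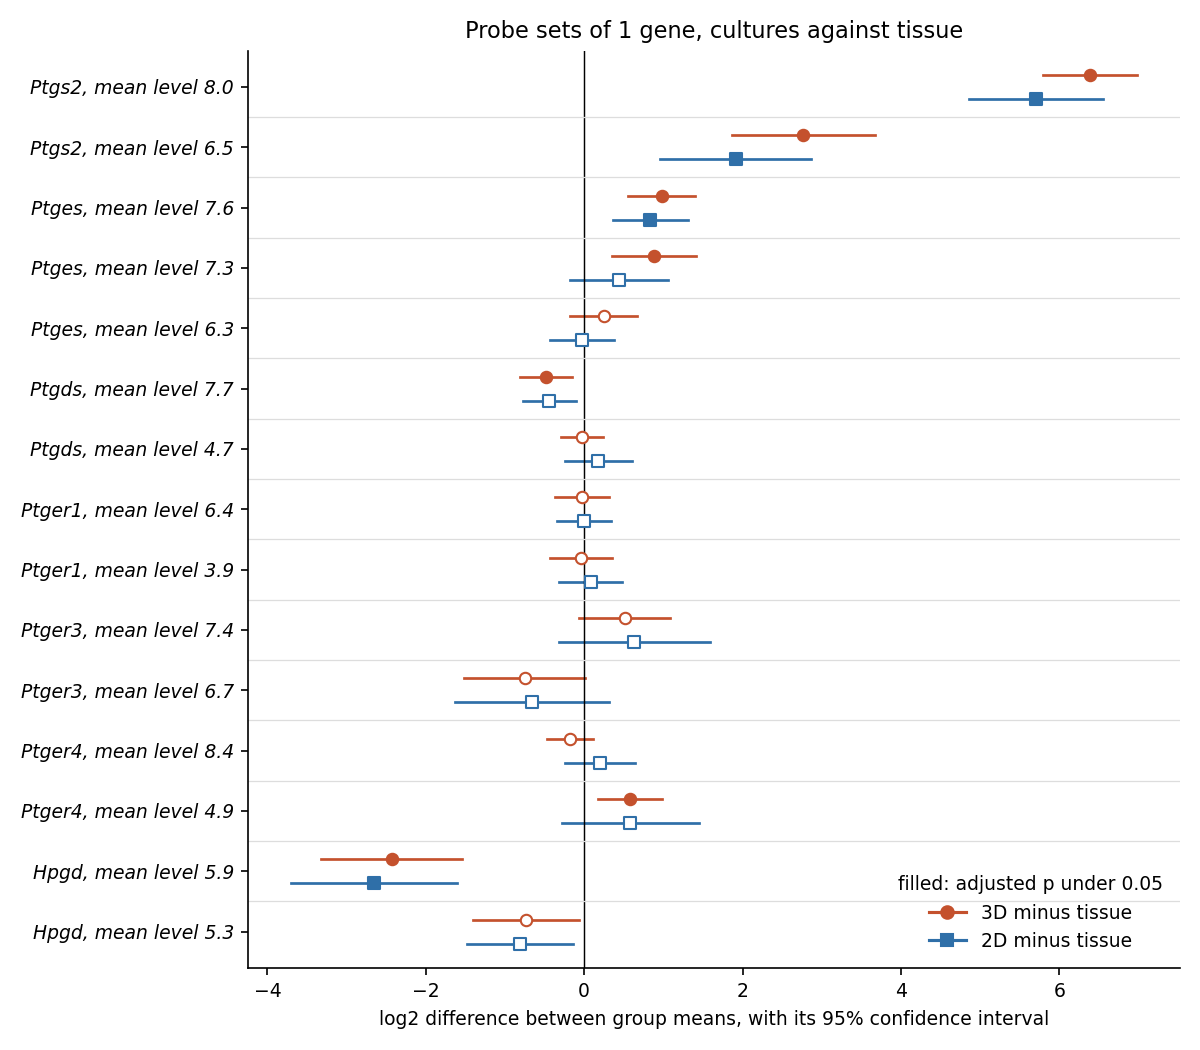
Log2 difference of 3D (circles) and 2D (squares) from tissue, with 95% confidence intervals, for every probe set of the 7 genes that have several; labels give the mean level over the 3 groups, and filled symbols mark an adjusted p under 0.05. For Ptgs2, Ptges and Hpgd the dimmer probe sets lie closer to 0 than the main probe set. The signs differ for Ptger3, for Ptger4 in 3D, and in 2D for the dimmest probe sets of Ptges and Ptgds.

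The order of levels over the groups follows from these tests. A moderated F test over the 12 arrays called 4 of the 9 genes, Ptgs2 (adjusted p = 5.18e-07), Hpgd (0.000652), Ptges (0.00594) and Ptgds (0.0226), where 39.3% of all genes were called. In Ptgs2 and Ptges the order by means was 3D, 2D, tissue, with 3D and 2D not distinguished. For Hpgd it was tissue, 3D, 2D and for Ptgds tissue, 2D, 3D, again with the cultures not distinguished. For Ptgis it was tissue, 3D, 2D, with no called difference between neighbours, and the 4 receptors had no order beyond their spread. Counting arrays instead of p-values, 2 genes lay wholly above tissue and 3 wholly below it in 3D, where 24.1% and 18.3% of all genes did. In 2D 2 genes lay wholly above and 2 wholly below tissue, against 18.5% and 15.3% of all genes. Of the 9 genes 0 separated 3D from 2D in either direction (4.49% and 2.87% of all genes).

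Some genes ran closely with the called members over the 12 arrays, a description in which the points share the gap between culture and tissue. Most like Ptgs2 were Cxcl3 (Pearson r = 0.993), Smad3, Fosl2, Mapk6 and Ereg (down to 0.990). Most like Ptges were Slc15a3 (r = 0.961), Cxcl16, Uimc1, Slx4 and Mbd6 (down to 0.934). Hpgd ran with Stxbp6 (r = 0.978), Col4a3, 2810433D01Rik, Serpinb6c and Lypd2 (down to 0.965), and Ptgds with Tex29 (r = 0.969), Akr1d1, Inhbc, 5330439K02Rik and Atp8b3 (down to 0.943). Over the 8 culture arrays alone r with Ptgs2 was 0.863 for Cxcl3, a chemokine gene, and 0.921 for Ereg, a growth factor gene. It was 0.893 for Smad3, 0.779 for Mapk6 and 0.752 for Fosl2. For Lypd2 with Hpgd it was 0.496.

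Upstream of Ptgs2, 2 of 10 measured genes that release arachidonic acid rose in each culture and 0 fell, near the share of all genes called higher (20.1% in 3D and 14.3% in 2D). In 2D 0 were called with tissue replicate 1 alone or with tissue replicates 2 and 3 left out. Pla2g4a, the cytosolic phospholipase that prefers arachidonic acid, read 8.72, 9.17, 8.75 and 8.72 in 3D, 7.54, 7.88, 7.44 and 8.94 in 2D, and 6.72, 5.92, 6.47 and 6.10 in tissue. All culture arrays were above all tissue arrays. Its difference from tissue was 2.54 in 3D (adjusted p = 5.26e-05 from limma) and 1.65 in 2D (adjusted p = 0.0109), and the 2D call was lost with tissue replicate 1 alone (1.23, adjusted p = 0.279). Pla2g12a, a secreted phospholipase, rose by 1.16 and 1.41 (adjusted p = 0.0184 and 0.0253). With tissue replicate 1 alone it was 0.63 in 3D (adjusted p = 0.0770) and 0.88 in 2D (0.321), and its calls were lost in 3D without 3D replicate 1 or 2 or tissue replicate 2 and in 2D without 2D replicate 1, 2 or 4 or tissue replicate 2. The median difference over the 10 genes was -0.03 in 3D and 0.05 in 2D.

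Among 6 other prostanoid synthases, 2 rose in 3D against tissue and 0 in 2D (20.1% and 14.3% of all genes). Akr1c18, an aldo-keto reductase that also acts on steroids, was at 8.47, 9.02, 9.15 and 8.94 in 3D, 6.0, 6.11, 6.54 and 6.96 in 2D, and 6.11, 6.34, 6.53 and 6.60 in tissue, and was 1 of only 3 genes called between 3D and 2D on these arrays (difference 2.49, SE 0.23, adjusted p = 0.0271). That call was lost without 3D replicate 2, 3 or 4 or 2D replicate 1, 2 or 3 (adjusted p from 0.0518 to 0.182), while every 3D array stayed above every 2D array. Prxl2b, a prostamide and prostaglandin F synthase, rose by 1.29 in 3D against tissue (adjusted p = 0.00332) and differed by 0.61 in 2D (adjusted p = 0.0772). Between 3D and 2D it differed by 0.68 (adjusted p = 0.362).

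Of 6 other prostanoid receptors 0 rose, where 20.1% of all genes did in 3D and 14.3% in 2D. In 3D 2 fell and in 2D 1 (15.5% and 9.87% of all genes). Ptgfr, the receptor of prostaglandin F, fell by 0.66 in 3D and by 0.98 in 2D (adjusted p = 0.0187 and 0.00932), at 4.62 to 5.29 on culture arrays and 5.39 to 6.14 on tissue arrays, and neither call held with cyclic loess (adjusted p = 0.162 and 0.0510). The 3D call was also lost without 3D replicate 1, 3 or 4 (adjusted p from 0.0505 to 0.0570). Tbxa2r, the thromboxane receptor, fell by 0.54 in 3D (adjusted p = 0.0152, or 0.0568 without 3D replicate 4) and differed by -0.38 in 2D (adjusted p = 0.0681).

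Of 5 genes of transport and further breakdown 3 rose in 3D and 2 in 2D (20.1% and 14.3% of all genes), and 0 fell. Cbr3, a carbonyl reductase, read 9.28, 9.07, 8.99 and 9.10 in 3D, 9.52, 10.06, 10.15 and 9.62 in 2D, and 8.15, 7.87, 7.67 and 8.44 in tissue, a difference from tissue of 1.08 and 1.80 (adjusted p = 0.00234 and 0.00121). Every 2D array was above every 3D array, but the difference of -0.73 was not called (adjusted p = 0.178). Ptgr1, a reductase that acts on the product of Hpgd, rose by 1.03 and 1.29 (adjusted p = 0.0468 and 0.0314), calls that were lost in 3D when any single 3D array or tissue replicate 2 was left out and in 2D when any single 2D array or tissue replicate 2 was left out. Slco2a1, the carrier that takes prostaglandins into cells, rose in 3D by 0.98 (adjusted p = 0.0131; 0.0681 with cyclic loess) and differed by 0.34 in 2D (adjusted p = 0.464).

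In the neighbouring leukotriene and lipoxygenase branch 2 of 10 genes rose and 3 fell in 3D (20.1% and 15.5% of all genes). In 2D 1 rose and 3 fell (14.3% and 9.87% of all genes). Alox5ap, the helper protein of leukotriene synthesis, fell in both cultures, with differences of -1.01 in 3D and -1.16 in 2D (adjusted p = 0.00215 and 0.0290). Alox5, the lipoxygenase itself, gave -0.64 and -0.67 (adjusted p = 0.00376 and 0.00929), and Cysltr1, a leukotriene receptor, -0.72 and -0.94 (adjusted p = 0.0126 and 0.00878). Lta4h, the hydrolase that makes leukotriene B4, rose by 1.39 and 1.18 (adjusted p = 0.00269 and 0.0132), but in 2D the mean of its probe sets gave 0.17 (adjusted p = 0.294). With tissue replicate 1 alone the 2D calls of all 4 genes were lost, in a fit without spread among tissue arrays. The 2D call of Alox5ap was also lost when any single 2D array but replicate 4 or any single tissue array but replicate 3 was left out. All 4 genes are known from macrophages and other blood cells. Alox5ap on 2D replicate 4 was at 8.27 against 6.80 to 7.38 on the other 2D arrays, as the macrophage markers were. Their part in these differences was not tested.

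**Figure D5:**
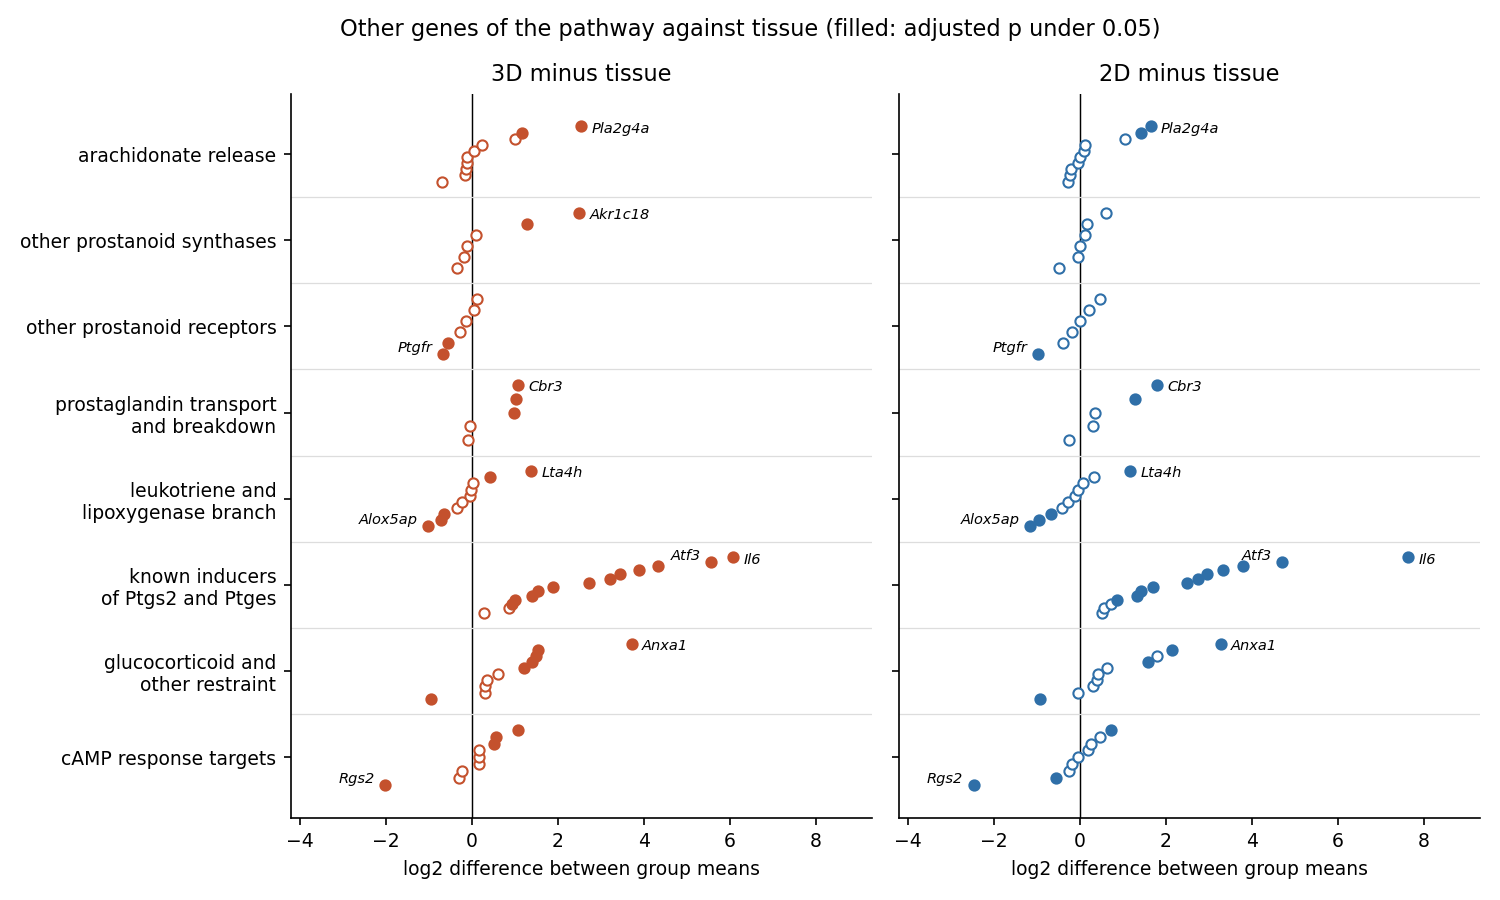
Log2 difference from tissue in 3D (left panel) and 2D (right panel) of the other measured genes of the pathway, 1 point a gene in 8 lists from top to bottom, filled where the adjusted p was under 0.05, with some points named. The 14 known inducers all lie right of 0, up to 6.09 for Il6 in 3D and 7.63 in 2D, while the other prostanoid receptors lie around 0, with Ptgfr at -0.66 and -0.98.

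Genes known to induce Ptgs2 and Ptges were mostly higher in culture. Of 14 measured, 12 rose in 3D and 11 in 2D against tissue (20.1% and 14.3% of all genes) and 0 fell. Their median differences were 2.31 and 2.10. Il1a and Tnf were called in neither culture. Il1a differed from tissue by 0.86 in 3D and 0.56 in 2D (limma adjusted p = 0.0945 and 0.266). Tnf differed by 0.29 and 0.52 (adjusted p = 0.161 and 0.125). Il1b was called in 3D (1.01, adjusted p = 0.0154) but not in 2D (0.725, adjusted p = 0.0982). With tissue replicate 1 as the only tissue array 6 of the 14 were called in 2D, Fos no longer among them (adjusted p = 0.0873). Il6, an inflammatory cytokine, was at 9.20, 11.39, 9.72 and 9.46 in 3D, 11.24, 11.24, 12.02 and 11.45 in 2D, and 3.75, 3.58, 4.24 and 3.85 in tissue. It rose by 6.09 in 3D and by 7.63 in 2D (adjusted p = 3.00e-05 and 1.65e-06), and between 3D and 2D it differed by -1.54 (adjusted p = 0.265). Il1rap, the shared subunit of the interleukin-1 receptor, rose by 3.21 and 2.95 (adjusted p = 2.86e-06 and 3.88e-05). Atf3 and Fos, transcription factors of the stress and early response, rose by 5.56 and 3.88 in 3D (adjusted p = 3.07e-06 and 8.77e-06) and by 4.70 and 3.32 in 2D (adjusted p = 2.11e-05 and 0.000758). The list was drawn up with results for Il6 and Atf3 known, so its count is no independent evidence of its direction.

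Genes known to restrain the pathway moved in part the same way. Of 10, 5 rose and 1 fell in 3D (20.1% and 15.5% of all genes), and 3 rose and 1 fell in 2D (14.3% and 9.87%). Anxa1, a protein that glucocorticoids induce and that was named for inhibiting phospholipases, read 13.20 to 13.45 in 3D, 12.48 to 13.30 in 2D and 9.26 to 10.08 in tissue, a difference of 3.72 and 3.28 (adjusted p = 6.17e-06 and 0.000102). Zfp36, which destabilises messenger RNAs such as that of Ptgs2, rose by 1.54 and 1.58 (adjusted p = 0.000193 and 0.00873), and Dusp1, a phosphatase of MAP kinases, by 1.22 and 2.14 (adjusted p = 0.00666 and 0.00240). Tnfaip3, an inhibitor of NF-kB signals, rose by 1.5 in 3D (adjusted p = 0.00103) and differed by 1.79 in 2D (adjusted p = 0.0541). Tsc22d3, another glucocorticoid-induced gene, fell in both cultures, with differences of -0.95 and -0.92 (adjusted p = 0.0245 and 0.0485). Both calls rest on 1 probe set: the most variable one gave 0.01 and 0.03 (adjusted p = 0.987 and 0.972), and the 3D call was also lost when any single 3D array or tissue replicate 2 was left out, the 2D call when any single 2D array or tissue replicate 1, 2 or 4 was (adjusted p from 0.0507 to 0.110). With tissue replicate 1 alone the 2D calls of Zfp36 and Dusp1 were lost as well (adjusted p = 0.189 and 0.0614).

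Downstream, 9 genes that cAMP signals are known to induce gave no shared direction. In 3D 3 rose and 1 fell (20.1% and 15.5% of all genes), and in 2D 1 rose and 2 fell (14.3% and 9.87%). With single arrays left out 1 to 3 rose in 3D. Rgs2, a brake on G protein signals, fell in both cultures, with differences of -2.0 and -2.47 (adjusted p = 3.40e-05 and 0.000325), with 5.96 to 7.15 on culture arrays and 8.77 to 9.13 on tissue arrays. Sik1, a kinase, rose by 1.08 and 0.72 (adjusted p = 0.00159 and 0.0310), and in 2D it was 0.43 with cyclic loess (adjusted p = 0.216), 0.44 with centred arrays (0.196) and 0.28 by the mean of its probe sets (0.205). Leaving out any single 2D or tissue array but those of replicate 3 also ended that 2D call (adjusted p from 0.0529 to 0.0880). Crem, a cAMP-responsive transcription factor, rose by 0.57 in 3D (adjusted p = 0.0268), a call that was lost with cyclic loess (0.0916), with centred arrays (0.210) and without 3D replicate 2, 3 or 4. Nr4a2, a nuclear receptor, was at 8.93, 8.69, 8.78 and 9.08 in 3D, 7.87, 7.80, 7.65 and 7.90 in 2D, and 8.34, 8.56, 8.45 and 8.07 in tissue, so that 3D lay wholly above tissue and tissue wholly above 2D. It rose by 1.06 in 3D against 2D (adjusted p = 0.0330) and by 0.52 in 3D against tissue (adjusted p = 0.0309), and fell by 0.55 in 2D against tissue (adjusted p = 0.0339). The 3D difference from tissue was 0.21 with cyclic loess (adjusted p = 0.451) and 0.24 with centred arrays (0.377), and its call was lost without 3D replicate 1, 3 or 4 or tissue replicate 4. In 2D against tissue the mean of its probe sets gave 0.05 (adjusted p = 0.758) and the most variable one 0.31 (0.215), and the call was lost when any single 2D array or tissue replicate 1 or 2 was left out. For Nr4a2, leaving out any of 3D replicates 2, 3 and 4 or 2D replicates 1, 2 and 3 ended the call between 3D and 2D (adjusted p from 0.0518 to 0.154). The mean of its probe sets gave a smaller difference between 3D and 2D, 0.56, which was not called (limma adjusted p = 0.0529).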

How the data were processed

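The values analysed were log2 expression levels per probe set, made by the authors from 12 Affymetrix arrays (4 each of 3D, 2D and tissue) with RMA in Affymetrix Expression Console, as deposited. RMA corrects background, quantile-normalises and summarises probes, so a change in total RNA is not visible and no detection call is given. The software version and genome build are not given in the sources used here.

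Groups came from the sample labels. The labels call the replicates biological, but nothing says whether they were separate cultures or litters. The limma p-values set a difference of group means against the spread within the groups. They take the replicates as independent, which is not known here. No 2 arrays were identical. With 4 arrays a group, their number limits the precision.

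Of the probe sets, 64 controls were left out and 45037 were tested with limma 3.58.1 in R 4.3.3 (lmFit, eBayes) on the 8 arrays of each pair, with Benjamini-Hochberg adjustment over all of them. An F test used the 12 arrays. Exact two-sided permutation tests ran over 70 splits, where the smallest p is 0.0286. Names came from the platform annotation: 34945 probe sets had 1 symbol, 932 several and 9160 none, and 34741 of the first were matched by identifier to RefSeq. A gene was taken as its probe set of highest mean, and 9010 genes had several. Of 154 listed genes 143 had a probe set.

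The members, gene lists, motifs and tests were chosen with earlier results of these data known. All members were named, with up to 4 called genes of smallest adjusted p for each other list and comparison and the 5 genes most like each member called by the F test. Of the marker lists, counts that rose and fell in 3D and in 2D against tissue were 0 and 4, and 0 and 3, of 7 for sympathetic neurons, 3 and 2, and 3 and 1, of 7 for glia, 1 and 0, and 1 and 2, of 7 for fibroblasts, 2 and 1, and 1 and 1, of 7 for leptomeninges, 2 and 1, and 3 and 1, of 7 for smooth muscle, 0 and 2 in each, of 5 for mast cells and 0 and 3 in each, of 5 for skeletal muscle. Over all genes 20.1% rose and 15.5% fell in 3D against tissue, and 14.3% rose and 9.87% fell in 2D against tissue. Alternatives covered the scaling, weights, prior, probe set rule, dim filter, the methods' t-test, single arrays left out and the replicate block. The tests were checked on simulated data.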

Additional observations from a re-analysis of the deposited data

Results flagged for a closer look

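Ptgis in the 2D group was picked out because 1 array lay far from the others. On 2D replicate 4 the log2 level was 8.95, against 6.64, 6.70 and 6.63 on 2D replicates 1, 2 and 3. The gap to the nearest array was 0.970 of the range of the group, above Dixon's limit for 4 samples. Among the 27 groups tested (9 genes in 3 groups) it was the 1 found, where chance gives about 1 in 20 groups. The same array was the highest culture array for Hpgd, Ptger4 and the means of the macrophage, smooth muscle and pericyte (10.33) and endothelial (6.24) markers, and the lowest of the 12 arrays for that of the neuron markers (9.71). The part of any of these cells in the value was not tested.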

How the results depend on the processing

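The differences of Ptgs2 and Hpgd from tissue kept their direction and their call under all alternatives run. Between 3D and 2D the count of called members was 0 higher and 0 lower, and leaving out 2D replicate 4 and 3D replicate 1 gave 2 higher, Ptgis and Hpgd. In 3D against tissue the 2 members called higher became 1 when at least a 2-fold change was asked. The 2 called lower there became 1 with array weights, with the mean of the probe sets, at least 2-fold and with tissue replicate 1 alone, 4 with cyclic loess (with Ptgis and the receptor Ptger4 added), and 1 to 2 with single arrays left out. In 2D against tissue the 2 called higher became 1 with centred arrays, the methods' t-test after Benjamini-Hochberg, the mean or the most variable of the probe sets, at least 2-fold, tissue replicate 1 alone and tissue replicates 2 and 3 left out, and 1 to 2 with single arrays left out. The 1 called lower there became 2 with 1 fit of all 12 arrays, array weights, cyclic loess, centred arrays and the methods' t-test unadjusted, and 1 to 2 with single arrays left out. Ptger4 in 3D against tissue turned to 0.58 with its most variable probe set. The cause of these changes was not tested.

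The replicate numbers were not shown to pair the samples (r of deviations from -0.07 to 0.41). With a replicate block Ptger3 in 3D against tissue, at 0.52, passed the threshold (adjusted p = 0.0312 from limma), which made 3 members called higher, and no other member call changed. Over all genes the replicate block gave 0 calls between 3D and 2D, 6138 between 3D and tissue and 4243 between 2D and tissue.

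Over all genes the count called between 3D and 2D was 3, against 312 with array weights, 1357 with 2D replicate 4 and 3D replicate 1 left out, 0 to 123 with single arrays left out (123 without 2D replicate 4), and, by the methods' t-test, 2118 unadjusted and 0 after Benjamini-Hochberg. The share of called genes that was higher in 3D than in tissue was 56.5%, 39.4% with centred arrays and 47.7% with cyclic loess, and for 2D against tissue 59.1%, 38.4% and 47.7%. Centring moved the median of all genes to -0.31 in both. For the comparisons with tissue, leaving out 2D replicate 4 and 3D replicate 1 equals leaving out the 1 array present. Ptger2 has no value under the dim filter. Signal that is dim or near background limits Ptger2, Ptgs2 in tissue, Hpgd in culture and the dimmer probe sets of Ptgds, Ptger1 and Ptger4.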
